A study of Homo sapiens with 4 samples.

Results

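Promoter-flanking peaks are stretches of open chromatin whose nearest annotated transcript start lies more than 1 kb and at most 3 kb away. They were the peaks of the authors' first deposited table that its annotation places in the promoter at 1-2 kb or at 2-3 kb, 1086 of 20556 peaks (5.28%), with 584 in the nearer and 502 in the farther class. The assay was ATAC-seq, which uses a transposase to put sequencing adapters into accessible DNA. The cells were Kasumi-1, an established acute myeloid leukaemia line with the t(8;21) translocation. One group was SETD8 knockout by CRISPR/Cas9 (2 libraries), and its control was labelled sgNT with the genotype WT (2 libraries). SETD8, now named KMT5A, places the single methyl group on lysine 20 of histone H4. The labels do not say whether the knockout cells were a clone or a pool, how many guides were used or when cells were collected. None of the promoter-flanking peaks belonged to KMT5A, so they hold no value for the targeted gene itself.

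The DNA just outside a core promoter often holds regulatory elements that act on the promoter beside it, or the starts of shorter and alternative transcripts of the gene. Transposase signal there tends to be weaker than at the start site itself, where the transcription machinery keeps nucleosomes away. Such flanks can also hold the body of a small gene, so that for a microRNA the flank lies next to the hairpin that is cut to the mature RNA.

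A few sequences show what lies in or beside the strongest and best-known of these regions, and they were chosen after the values were seen. All come from RefSeq, assembly GRCh38.p14. The mature microRNAs below belong to genes with a flanking peak, and the capitals mark the seed, the bases that pair with a target. Each of them has a different seed.
hsa-miR-21-5p: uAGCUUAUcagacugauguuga
hsa-miR-24-3p: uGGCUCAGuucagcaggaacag
hsa-miR-221-3p: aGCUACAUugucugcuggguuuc
hsa-let-7b-5p: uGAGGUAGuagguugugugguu
They lie on chr17:59841273-59841294 (plus strand), chr19:13836289-13836310 (minus strand), chrX:45746180-45746202 (minus strand) and chr22:46113691-46113712 (plus strand).

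The next sequences are RefSeq promoter windows, 250 bases before to 50 after a gene's start, that lie whole inside a flanking peak. The first is the start of the uncharacterised gene LOC105376621 inside the flanking peak of LMO2, a bridging factor of blood stem cell transcription complexes, on the plus strand of chr11:33893696-33893995. The second is the RefSeq start of PDGFRA, the platelet-derived growth factor receptor alpha, inside its own flanking peak, on the plus strand of chr4:54233710-54234009.
LOC105376621: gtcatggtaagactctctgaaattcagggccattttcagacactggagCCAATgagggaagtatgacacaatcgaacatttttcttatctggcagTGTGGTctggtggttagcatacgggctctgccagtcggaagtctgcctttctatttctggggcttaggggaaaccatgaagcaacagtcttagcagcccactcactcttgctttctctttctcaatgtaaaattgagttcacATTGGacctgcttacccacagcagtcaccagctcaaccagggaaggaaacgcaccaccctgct
PDGFRA: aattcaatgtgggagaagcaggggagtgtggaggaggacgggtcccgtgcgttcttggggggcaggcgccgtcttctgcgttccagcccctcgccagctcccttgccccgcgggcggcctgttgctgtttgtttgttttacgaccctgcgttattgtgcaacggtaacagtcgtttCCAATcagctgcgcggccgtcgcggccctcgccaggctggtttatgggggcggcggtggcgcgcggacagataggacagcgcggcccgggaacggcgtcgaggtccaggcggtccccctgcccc
Capitals mark matches, on either strand, to a core of the RUNX motif, TGTGGT, and to the box known as CCAAT. The RUNX match stood 155 bases before the start of LOC105376621, and 13.2% of all 27305 RefSeq promoter windows hold one, while 35.6% hold the other motif. The TATA box letters, TATAAA, are held by 12.1% of all windows and the AP-1 motif, spelled TGANTCA, by 7.90%, and neither was found in these windows. An ETS-like motif (CCGGAAGT, in 4.35%) was searched too and not found. The marked matches do not overlap, and a match is not evidence of binding. The LOC105376621 window had 4 CpG and the PDGFRA window 32, against a median of 13 over all windows.

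The 1086 flanking peaks belonged to 1028 genes, of which 52 had at least 2 such peaks and LAMA3, a laminin subunit gene, had 4. Upstream of the start lay 535 peaks and downstream 551. They were narrower than the peaks of the table as a whole, with a median width of 500 bp, against 602 bp over all peaks and 748 bp over core promoter peaks, those within 1 kb of a start. Their median level was 6.73 on the log2 scale, or 106 normalised reads, against 7.15 (142 reads) over all peaks, 7.83 (228 reads) at core promoters and 6.30 (78.8 reads) at distal intergenic peaks. In level the flanks therefore lay between core promoters and distal elements, while in width they were close to distal intergenic peaks (median 494 bp).

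The distance in the annotation is to the nearest transcript of a gene, which need not be its main one. Of the 1086 peaks, 800 had a gene with an entry in the RefSeq promoter table. The RefSeq start was itself 1 to 3 kb away for 333 of these peaks, but for 450 it lay beyond 3 kb, at a median of 23691 bp, and for 17 it lay within 1 kb. For most of them the transcript start that places the peak at 1 to 3 kb is thus not the RefSeq start of the gene, and "flanking" refers to the start of another transcript. RUNX1, the gene fused to RUNX1T1 in this line and known to use a distal and a proximal promoter, shows the pattern, since its flanking peak at chr21:35051240-35051735 lay 162541 bp from the RefSeq start. Another gene's RefSeq start fell inside 17 flanking peaks, as at LMO2, and the gene's own fell inside 6, as at PDGFRA.

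A gene's flank was not always accompanied by an open core. Of the 1028 genes, 501 also had a core promoter peak in the first table and 527 had none. The RefSeq windows of genes with a flanking and a core peak had a median of 26 CpG (404 windows), the same as genes with a core peak only (26, over 7424 windows), while those with a flanking peak and no core peak had 13 (353 windows), the median of all windows. These are descriptions of annotated starts and not of the peaks' own sequence, which was not read here.

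Among markers of the line, 4 of 7 had a promoter peak within 3 kb in the first table (CD34, CSF2RB, KIT and SPI1), while CD33, MPO and RUNX1T1 had none. Of the markers of other cells, 2 of 5 erythroid and megakaryocyte markers, 2 of 4 T cell markers and 3 of 4 B cell markers had one, and CD3E, CD2 and MS4A1 had none. Their part in the results was not tested. The libraries titled #2, here called replicate 2, held 2091370 reads in peaks in the SETD8 knockout library and 5345010 in the sgNT library.

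Most flanking peaks had a lower level in SETD8 knockout than in sgNT cells in both of the authors' deposited tables, by an amount close to that of all peaks. In the authors' first deposited table their log2 fold change (knockout over control, a direction taken from the name of the table) had a median of -0.77, with quartiles of -1.13 and -0.38 and a range of -2.50 to 1.49. It was below 0 at 975 peaks and above 0 at 102. The median over all peaks was -0.87, over core promoter peaks -0.92, and over distal intergenic and intron peaks -0.76 each. By this measure the flanks resembled distal and intron peaks more than core promoters. The order differed once the trend with peak level was removed. The medians were then 0.06 at flanks, 0.01 at core promoters and -0.03 at both distal intergenic and intron peaks. A fold change of -1 or lower was found at 366 of 1086 flanking peaks (33.7%), below the background of 38.9% of all peaks. A fold change of 1 or more was found at 3 flanking peaks (0.276%), against a background of 0.511%. These 3, at PRODH2 (1.49), NTM (1.04) and CIBAR2 (1.03), had levels of 6.62, 4.86 and 5.84.

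The authors' test called no flanking peak at an adjusted p of 0.05 in the first deposited table (background 0.0%), where the lowest adjusted p was 0.731. At an unadjusted p of 0.05 it marked 24 flanking peaks (2.21%), all lower in the knockout, against a background of 1.6%. No single fold change is therefore past the authors' test, and sizes are given as descriptions. Which libraries entered the first table is not stated, so the spread between replicates cannot be set beside its values.

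**Figure D1:**
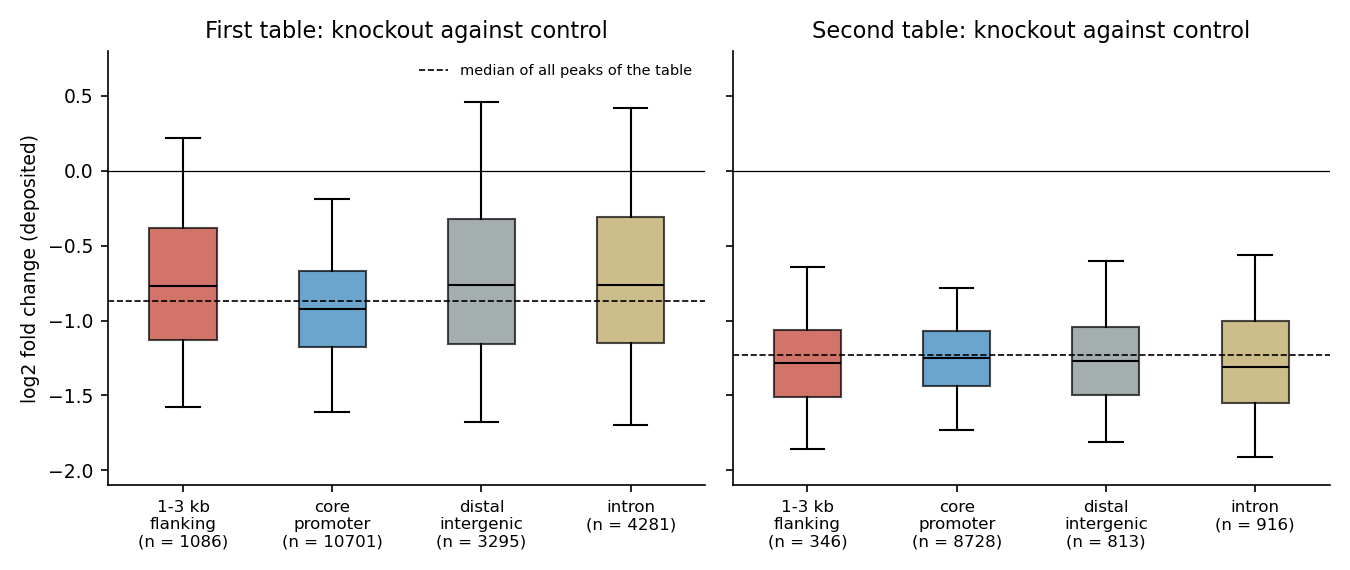
Log2 fold change (SETD8 knockout over sgNT) of promoter-flanking peaks (red), core promoter, distal intergenic and intron peaks in the first deposited table (left) and the second (right). Boxes span the quartiles with the median as a line, whiskers the 5th to 95th percentile, and the dashed line is the median of all peaks of the table. Flanking peaks have medians of -0.77 and -1.285, beside -0.92 and -1.25 at core promoters.

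The second deposited table compares single libraries, SETD8 knockout replicate 2 and sgNT replicate 2, so its differences have no replicate check. A flanking peak was found in it again, by an overlap of at least 1 bp, in 346 cases (31.9%), on 344 distinct peaks. Their median level was 97.0 normalised reads in the knockout library (range 26.0 to 714) and 246 in the control library (range 41.4 to 1428). The log2 fold change had a median of -1.285, with quartiles of -1.51 and -1.06, against -1.23 over all peaks of that table, -1.25 at core promoters, -1.27 at distal intergenic and -1.31 at intron peaks. It was -1 or lower at 276 flanking peaks (79.8%), near the background of 76.1%, and 1 or more at none (background 0.133%). Over the 11203 first-table peaks of any class joined in the same way, the median was -1.26 and 81.7% were at -1 or lower. No flanking peak passed an adjusted p of 0.05 in this table (background 0.0%), and 1, at A2M, had an unadjusted p below 0.05 (background 0.14%). The 2 libraries differed in reads in peaks, with 2091370 in the knockout and 5345010 in the control library. The log2 ratio of their summed normalised levels was -1.23, the same as the median fold change of the table. Both of these values come from the levels in peaks, and the total reads of each library were not among the values used here. Whether the shift common to nearly all peaks reflects the cells or the depth cannot be told apart here.

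Counting error of a single fold change was wide. The exact (Clopper-Pearson) 95% interval of a flanking peak's log2 fold change in the second table had a median half-width of 0.346, from 0.129 to 0.677, and it covers counting error only. In bulk libraries, fewer cells with an open region and less opening per cell cannot be told apart.

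Centred on each table's own median, the flanks leaned in different directions in the tables, but over unlike sets of flanks. The second-table flanks are only those joined to a first-table peak, while the background counts all peaks of that table. Below the first table's median lay 456 flanking peaks (42.0%, background 49.3%), and below the second table's 200 (57.8%, background 49.0%). Of the first-table flanks, 122 were at least 0.5 below the median of all peaks (11.2%, background 13.7%) and 269 at least 0.5 above it (24.8%, background 17.7%). Of those in the second, 41 were at least 0.5 below (11.8%, background 6.29%) and 24 at least 0.5 above (6.94%, background 9.16%). At a distance of 1, the first table had 23 flanks below (background 1.98%) and 72 above (background 5.52%), and the second 1 below (background 0.206%) and 5 above (background 2.04%). The tables hold different peaks, since mostly the stronger flanks were found again: those with a second-table peak had a median level of 7.43 and a first-table median fold change of -0.89, and those without had 6.425 and -0.66. The joined flanks alone had medians 0.02 below that of the first table and 0.055 below that of the second. All joined first-table peaks lay 0.03 below the second table's median, so an opposite lean is not shown for the same flanks. A limma fit on the fold changes of the 342 flanks that pair one to one called 317 lower and none higher at an adjusted p of 0.05 as deposited, with a background of 96.6% lower and 0.018% higher. With both tables centred it called none, with a background of 0.0% lower and 0.009% higher. At an unadjusted p below 0.05 the centred fit had 47 of the 342 flanks, beside 1174 of all 11117 peaks that pair one to one. The centred count depended on settings of the fit that were added after the data were seen. With limma's robust variance moderation it called 11 flanks, 3 lower (background 0.612%) and 8 higher (background 0.657%), and centred on the medians of the joined peaks 2, both higher (background 0.054%, and 0.0% lower). The fit assumes independent tables, which is not stated, and its calls as deposited were made on the shift common to all peaks.

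The first-table fold change went with peak strength. Flanking peaks with a level up to 5.5 had a median of -0.21 (117 peaks), those from 6.5 to 7 had -0.78 (203 peaks), those from 7.5 to 8 had -0.98 (103 peaks) and those above 9 had -0.925 (36 peaks). Core promoters of the same levels had medians of -0.28, -0.85, -0.97 and -0.93, and distal intergenic peaks -0.18, -0.93, -1.03 and -0.93. Removing this trend left a median of 0.06 for the flanks of the first table and -0.07 for those of the second. Width followed the same course, with -0.37 up to 300 bp (64 peaks) and -1.06 above 1000 bp (43 peaks).

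**Figure D2:**
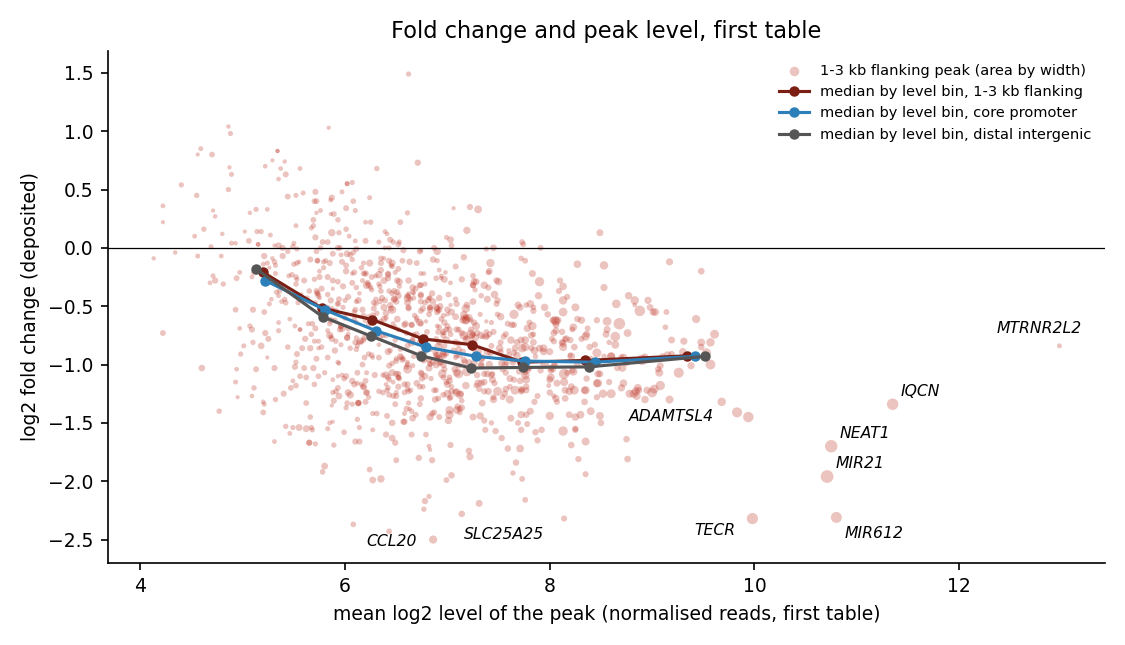
Log2 fold change (SETD8 knockout over sgNT) against the mean log2 level of each promoter-flanking peak in the first deposited table, with point area by peak width. Lines join the medians of level bins for flanking, core promoter and distal intergenic peaks, which run from about -0.2 in the weakest bin to -0.93 above a level of 9, and the strongest and lowest peaks are named.

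Position within the flank made little difference to the first-table medians. Peaks at 1-2 kb and at 2-3 kb had first-table medians of -0.77 and -0.765 and second-table medians of -1.28 and -1.31. Upstream and downstream peaks had first-table medians of -0.79 and -0.75 and second-table medians of -1.33 and -1.24. At -1 or lower in the second table were 83.8% of upstream and 76.0% of downstream flanks (background 76.1%). With the level trend removed their second-table medians were -0.12 and -0.015, and this difference was not tested. The 111 flanks of long noncoding RNA genes had a first-table median of -0.96, with 46.8% at -1 or lower, beside -0.75 and 32.3% at the 925 flanks of protein-coding genes. In the second table these medians were -1.295 (32 peaks) and -1.285 (298 peaks). The 17 flanks with another gene's start inside had a first-table median of -1.12 and the higher median level of 7.77. Of the nearest peaks just inside and outside the limits of the class, BCAT1 at 1001 bp had -0.92 and PRKAR1B-AS1 at 1000 bp -0.88, while POLA2 at 3000 bp upstream had -1.38 and UBE2J2 at 3001 bp -0.59. On either side of 2 kb, DBNL at 1998 bp had -0.53 and JAG1 at 2001 bp had -1.82.

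Flanks were next set against the strongest core promoter peak of the same gene. The difference of flanking minus core was taken as a median for each gene and then over genes. In the first table it was 0.15 over 501 genes, and of the 533 pairs the flank was higher in 318 and lower in 211. In the second table it was -0.14 over 141 genes, and of the 146 pairs the flank was higher in 46 and lower in 100. The sign was thus opposite in the tables, and an exact sign permutation of 2 values cannot give a p below 0.5. The sets of genes also differ, since the second-table genes are those with both a flank and a core peak found again. The first-table difference over those genes alone was not computed. The flank was the weaker peak in most pairs (median level difference -0.91 in the first table). Where the levels lay within 0.5 of each other, the first-table difference was 0.05 (127 pairs) and the second-table difference -0.185 (38 pairs), and with the core peak within 5 kb they were 0.01 (155 pairs) and -0.17 (50 pairs). These restrictions were added after the data were seen.

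Single genes, also chosen after their values were seen, show how far a flank and its core could part in the first table. At NR4A1, an immediate early nuclear receptor gene, the flank at chr12:52025588-52026131 had -1.65 and the core peak 1648 bp away -0.59. KANK2 had -2.13 at its flank and -0.73 at its core. The reverse held at RNF135, a ubiquitin ligase gene, with -0.11 at the flank and -1.42 at the core 2180 bp away. PDGFRA had -0.15 at its flank and -1.75 at the peak annotated as its core, but that peak lay 855021 bp away, while the gene's RefSeq start was inside the flank.

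Among flanks of at least the median level, the lowest fold change of the authors' first deposited table was that of CCL20, a chemokine gene. Its peak at chr2:227818050-227818974 had a mean level of 116 normalised reads and a log2 fold change of -2.50 (unadjusted p = 0.021, adjusted p = 0.731 by the authors' test). TECR, an enzyme of very-long-chain fatty acid elongation, had -2.32 at chr19:14512921-14514663, with 1010 reads. SLC25A25, a mitochondrial ATP-Mg/phosphate carrier gene, had -2.32 at chr9:128094250-128094760, and it was low in the second table too. The next were MIR612 (-2.31), LINC02579 (-2.28), SLC8A1 (-2.24), a sodium-calcium exchanger gene, CT69 (-2.19) and MBD5 (-2.17), a methyl-CpG-binding domain gene. The adjusted p of each was 0.731, so none of these changes passed the authors' test. MBD5 had a second-table fold change of -1.12 (56.1 knockout and 122 control reads), which was 0.11 above that table's median.

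At the other end of the first table, the 8 highest flanks at or above the median level spanned 0.05 to 0.35. They lay at LINC02539 (0.35), LAMA3 (0.34), LOC646652 (0.33), LAG3 (0.15), an inhibitory receptor of lymphocytes, TRPM2 (0.13), a cation channel, DGAT1 (0.09), an enzyme of triglyceride synthesis, TSNARE1 (0.07) and TMEM201 (0.05). None of them overlapped a second-table peak, so none could be compared between tables. Core promoter peaks of LAMA3, DGAT1, TSNARE1 and TMEM201 were below 0, at -1.14, -0.69, -0.41 and -0.71.

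In the second table the lowest flank at or above the median level was that of PHF19, an accessory subunit of Polycomb repressive complex PRC2. It had 97.7 normalised reads in the knockout library and 455 in the control library, a log2 fold change of -2.22 (95% counting interval -2.54 to -1.90). In the first table the same region had -1.28. SGCA, a muscle sarcoglycan gene, had 86.2 knockout and 377 control reads (-2.13), SHC3, a signalling adaptor gene, 102 and 443 (-2.11), and ARID3B, a DNA-binding factor gene, 106 and 449 (-2.09). LPIN1, a phosphatidate phosphatase gene, had 79.9 knockout and 324 control reads (-2.02), and CTPS1, a CTP synthase gene, 67.2 and 272 (-2.02). The control library was above the knockout library at 344 of the 346 joined flanks, and at these 6 their choice as the lowest fixed it. A2M, encoding a plasma protease inhibitor, had the lowest fold change of all joined flanks, -2.62, with 32.0 knockout and 197 control reads (unadjusted p = 0.0475 by the authors' test, where the lowest adjusted p of the table was 0.578).

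The highest flanks of the second table at or above the median level were still below 0. MIRLET7B, the let-7b microRNA gene, had 149 knockout and 228 control reads, a fold change of -0.61 (interval -0.91 to -0.31), and -0.81 in the first table. SLC29A1, a nucleoside transporter gene, had -0.68, PDGFRA -0.71, the pseudogene DOC2GP -0.77, EXOC3, an exocyst subunit gene, -0.78 and CFD, the complement factor D gene, -0.78. PDGFRA, whose flank holds the start site printed above, had 440 knockout and 724 control reads and a fold change of -0.15 in the first table. It lay 0.72 and 0.52 above the medians of the first and second table. For CFD, PRR36 and FAAP20 the second-table peak was several times wider than the flank, so its value covers more than the flank. Below the median level, CYRIB (82.1 knockout and 81.6 control reads) and LINC00964 (49.9 and 41.4) were the only joined flanks not below 0, at 0.01 and 0.28, and both lie on chromosome 8.

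**Figure D3:**
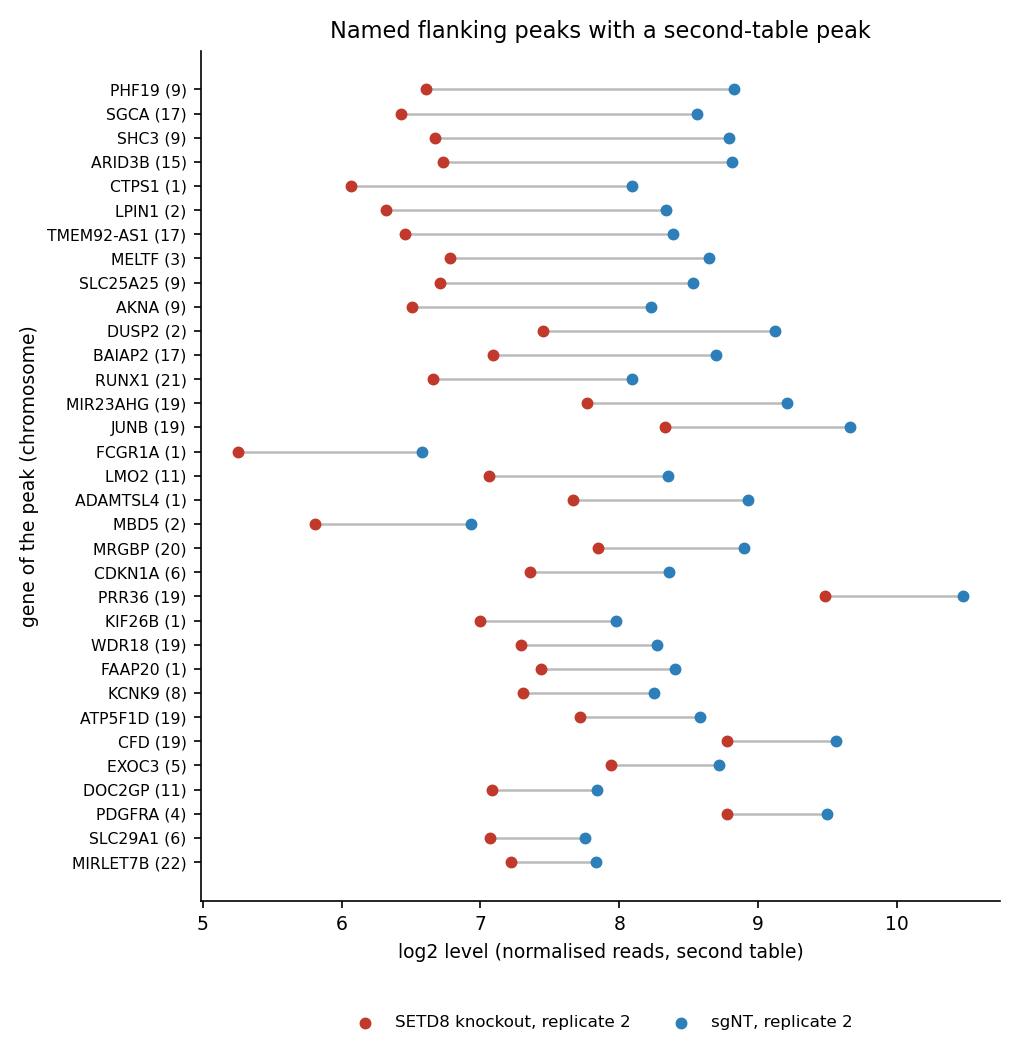
Log2 level in the SETD8 knockout (red) and sgNT (blue) library of replicate 2 for the named flanking peaks that overlap a second-table peak, ordered by fold change, with 1 library per point and no error bar. The knockout point is left of the control point at every peak, from PHF19 (-2.22) at the top to MIRLET7B (-0.61) at the bottom.

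Several flanks lay below the median of both tables. Besides PHF19, SHC3, LPIN1 and SLC25A25 (105 knockout and 370 control reads, -1.82), the lowest by the smaller of the centred values included AKNA (-1.58 and -1.73 in the first and second table), TMEM92-AS1 (-1.29 and -1.93), BAIAP2 (-1.81 and -1.61), a regulator of actin at the membrane, and MELTF (-1.22 and -1.87), the melanotransferrin gene. Of these 8, PHF19, SHC3, SLC25A25 and AKNA lie on chromosome 9, TMEM92-AS1 and BAIAP2 on 17, LPIN1 on 2 and MELTF on 3. The other peaks of their 5 Mb regions were mostly low as well. At AKNA the regional medians were -1.36 and -1.63, and the flank minus these was -0.22 and -0.10. At MELTF they were -0.87 and -1.135, with differences of -0.35 and -0.735. At SLC25A25 they were -1.16 and -1.58, with differences of -1.16 and -0.24.

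Above the median of both tables lay PDGFRA, CFD, KCNK9 (-0.42 and -0.94 in the first and second table), a potassium channel gene, FAAP20 (-0.30 and -0.96), a Fanconi anaemia core complex subunit, PRR36 (-0.49 and -1.0), KIF26B (-0.67 and -0.98), a kinesin gene, MRGBP (-0.28 and -1.05), a histone acetyltransferase complex subunit, and WDR18 (-0.70 and -0.97), a ribosome assembly factor. All had negative fold changes in both tables. In the first table the flank minus the regional median was -0.11 at KCNK9 and -0.05 at WDR18, and in the second table it was 0.16 at WDR18.

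Medians differed between chromosomes, for flanks and for all peaks alike. On chromosome 9 the 26 flanks had a first-table median of -1.13 and 12 of them a second-table median of -1.725, beside -1.16 and -1.455 over all peaks there. On chromosome 17 the 80 flanks had -0.92 and 24 had -1.605, beside -1.02 and -1.51. On chromosome 8 the 59 flanks had -0.66 and 17 had -0.93, beside -0.73 and -1.0. The chromosomes were not alike in both tables, since chromosome 2 flanks had -1.08 (59 peaks) beside -1.07 over all peaks in the first table, and -1.21 (14 peaks) beside -1.36 in the second. Flanks made up from 3.13% of the peaks on chromosome 13 to 10.4% on chromosome 22. Subtracting the regional median from each flank left a median of 0.08 over 1081 flanks of the first table and of -0.05 over 332 flanks of the second.

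**Figure D4:**
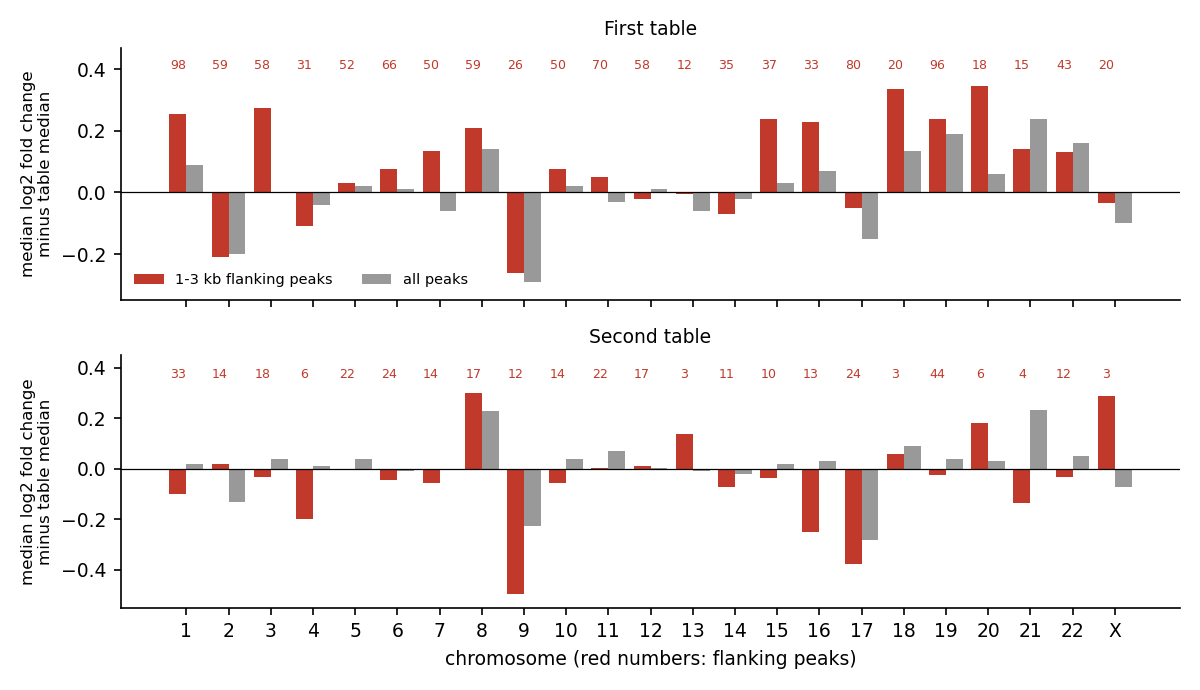
Median log2 fold change (SETD8 knockout over sgNT) minus the table's median, by chromosome, for promoter-flanking peaks (red) and all peaks (grey), in the first deposited table (top) and the second (bottom). Red numbers give the flanking peaks behind each red bar, and both bars lie below 0 on chromosomes 9 and 17 and above 0 on chromosome 8 in both tables.

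Above a level of 9, or 512 normalised reads, lay 36 flanks, of which 13 were wider than 1000 bp. The highest, at MTRNR2L2 (8079 reads), is a near-identical copy of mitochondrial sequence and can share reads with it, so its level is uncertain, and its fold change was -0.84. Then came IQCN (2610 reads, -1.34), MIR612 (1783 reads, -2.31), NEAT1 (1722 reads, -1.70), the long noncoding RNA that builds paraspeckles, and MIR21 (1675 reads, -1.96), a microRNA gene with high expression in many cancers. TECR (1010 reads, -2.32), MIR23AHG (982 reads, -1.45) and ADAMTSL4 (910 reads, -1.41) followed. Apart from MTRNR2L2, with 337 bp, these peaks were 1408 to 2253 bp wide. The peaks at NEAT1 (chr11:65426567-65428701) and MIR612 (chr11:65445511-65447170) lay 16809 bp apart, and those at MIR24-2 and at MIR23AHG, the host gene of the miR-23a cluster, 4995 bp apart. Each pair therefore samples a shared neighbourhood.

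At equal first-table level, the share of peaks found again in the second table differed between classes. Above a level of 9 this was 24 of 36 flanks (66.7%), beside 1536 of 1549 core promoter peaks (99.2%), 32 of 40 distal intergenic peaks (80.0%) and 39 of 43 intron peaks (90.7%). From 7.5 to 9 it was 59.7% of flanks and 93.3% of core promoters, and distal intergenic (62.0%) and intron peaks (57.3%) were near the flanks. Of the 12 strong flanks with no second-table peak, 7 had a first-table fold change of -1 or lower, and their median was -1.25, while 10 of the 24 found again did, with a median of -0.895 (background 38.9% of all peaks). Of the 13 core promoter peaks this strong with no second-table peak, 4 had -1 or lower, with a median of -0.79, and of the 1536 found again 41.0% did, with a median of -0.93. The 12 were MTRNR2L2, IQCN, MIR612, NEAT1, MIR21, TECR, MIR24-2, ZNF595, ST3GAL1, IRF2BP2, DUSP6 and NFATC1. TECR, MIR612, MIR21 and NEAT1, the 4 lowest of all 36 in the first table, thus had no value in the second, and the median of the joined flanks does not contain them. This split by level was made after the data were seen, the peaks are not replicates, and the difference was not tested.

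**Figure D5:**
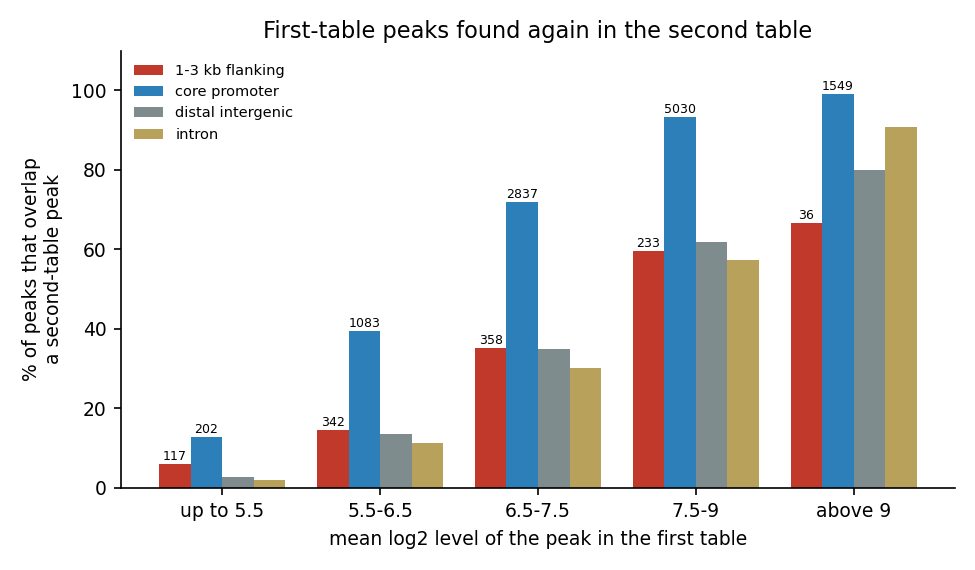
Share of first-table peaks that overlap a second-table peak, by mean log2 level in the first table, for promoter-flanking, core promoter, distal intergenic and intron peaks, with the number of flanking and core peaks above their bars. Above a level of 9 the share is 66.7% for flanking and 99.2% for core promoter peaks.

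MicroRNA genes gave 25 flanks, with a first-table median of -0.78. The flank of MIR21, at chr17:59842369-59844621, begins downstream of the mature sequence printed above and had -1.96 (unadjusted p = 0.0569), while a core promoter peak of the same annotation had -1.36. MIR24-2 had 820 reads and -1.32, and MIR221 141 reads and -1.37. MIR4648, also strong with 410 reads, had -0.65. The 7 microRNA flanks of the second table ranged from -1.74 at MIR548Z (67.2 knockout and 224 control reads) to -0.61 at MIRLET7B, with a median of -1.22. MIR1303 (122 knockout and 223 control reads) had -0.86, above the table's median, although its first-table value of -1.46 was below that table's median.

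Gene lists for this leukaemia touched few flanks, and none of their members passed the authors' adjusted p. Flanks were uncommon among all genes with a core peak too, with 404 RefSeq windows of genes with both and 7424 with a core peak only. The number of flanks in a list is therefore not read as a result about that list. Of 40 stem cell and progenitor genes, 5 had a flank, with a first-table median of -1.12, beside -0.77 over all flanks and -0.87 over all peaks. LMO2 had 133 knockout and 326 control reads in the second table (-1.29) and -1.12 in the first. RUNX1 had 101 knockout and 272 control reads (-1.43) and -1.51. MECOM, a stem cell transcription factor gene, and NYNRIN, part of a stemness signature, had first-table values of -1.12 and -0.81, and CDK6, a cell cycle kinase gene, had -0.05. The members thus spread from near 0 to well below the table's median.

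Of 24 genes associated with t(8;21), 5 had a flank, with a first-table median of -1.01. RASSF2, a tumour suppressor gene of the RAS pathway, had -1.25, CDKN1A, the p21 cell cycle inhibitor gene, -1.01, TSPAN32 -0.92 and LAT2, a membrane adaptor gene, -0.52, beside RUNX1. CDKN1A had 164 knockout and 329 control reads in the second table (-1.0), which was 0.23 above that table's median. Among the myeloid differentiation genes, FCGR1A, an Fc receptor gene with near-identical copies that can share reads, had 38.1 knockout and 95.7 control reads (-1.33), and -1.54 in the first table.

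Of these lists, that of immediate early and AP-1 genes had the most flanks, 11 at 9 of 35 genes. Their first-table median was -0.80, with 3 of 11 at -1 or lower (background 38.9%), and 5 lay in the second table, with a median of -1.33 and all 5 at -1 or lower (background 76.1%). With so few flanks, neither count is read as a difference from the background. JUNB, an AP-1 subunit, had 322 knockout and 809 control reads (-1.33), and -0.79 in the first table. DUSP2, a MAP kinase phosphatase gene, had 175 knockout and 556 control reads (-1.67), and -0.93. ZFP36, which destabilises inflammatory mRNAs, had 83.3 knockout and 208 control reads (-1.33), and EGR3 136 and 326 (-1.26). DUSP6 (-1.18), FOS (-0.80), MAFK (-0.40) and the NR4A1 flanks (-1.0 and -1.65) were in the first table only. IER2 had 2 flanks of unequal value, -0.51 and -0.09, of which the second had 236 knockout and 541 control reads (-1.20). Values of this list thus lay on both sides of the first table's median, with 5 below and 6 above, while in the second table, of 5 flanks, 4 lay below its median and 1 above.

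Of 32 apoptosis and p53 genes, 4 had a flank: BAK1, a pore-forming death effector, at -1.31, CDKN1A at -1.01, GADD45B, a stress sensor, at -0.58 and BID, a death-promoting member of the BCL2 family, at -0.22. Of 36 respiratory chain and ATP synthase genes only ATP5F1D had one, with first-table and second-table values of -1.28 and -0.86 (211 knockout and 383 control reads). Of 50 mitochondrial homeostasis genes only OPTN, a mitophagy receptor gene, had one, a weak peak of 23.4 reads at 0.45, beside -0.24 at its core promoter. None of the 30 genes of H4K20 methylation and replication licensing had a flank, and 23 had a core peak. Markers of other lineages gave 3 flanks, at KLF1 (-0.51), CD4 (-0.47) and CD3D (-0.61), each above the first table's median.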

How the data were processed

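Groups came from the sample titles. Per the submitters' processing notes, cutadapt, Bowtie2, SAMtools, MACS2 2.1.2, deepTools, ChIPseeker and hg38 were used, with no order; settings for read shifting, duplicates or scaling are not given in the sources used here. What the authors deposited were 2 tables of log2 levels, log2 fold changes, p-values and adjusted p-values. Per the file headers the second names 1 library of each group, matched to the samples whose titles end in #2. Calling these replicate 2 is a reading of the titles, which do not say what #2 stands for. The first has numbered columns, identified by order and range, and its direction (treated against control) comes from its name. Its 2 per-sample columns name no library and were not used. The second table's log2 levels, raised from log2, are whole reads in the knockout library and reads times 0.918 in the control library, a scale found by search (100% of distinct weak values whole, within 0.0051 on the log2 scale), which gave the counting intervals.

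Members and gene lists were chosen with earlier results of these data known. Tables were joined by at least 1 bp of overlap and compared within a table, because each was scaled separately. Named peaks were, at or above the members' median level, the 8 lowest and 8 highest of the first table, 6 of each of the second, the 8 strongest, up to 8 of each sign in both tables, those at the distance limits and up to 4 per list; others are said to be chosen after their values were seen. Some genes that the rule or lists name are not reported here. The level trend was the median of 20 level bins, the regional trend that of 5 Mb bins with at least 10 other peaks. The conditional test of counts was not run, since the tables give levels and not counts of the 4 libraries. No genome was used, so the planned sequence features of peaks were replaced by RefSeq promoter windows. All 1086 members' gene identifiers matched RefSeq. The tools were Python 3.11.15, numpy 2.4.6, pandas 2.3.3, scipy 1.17.1, matplotlib 3.10.9, R 4.3.3 and, for the fit with a replicate block (tested on simulated data), limma 3.58.1. Whether the replicates came from separate cultures is not stated.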

Additional observations from a re-analysis of the deposited data

How the results depend on the processing

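Of 50 alternative values over 11 results, 22 stayed near the reported value and 28 moved. A count stayed near if it was equal or within a factor of 1.5. A median stayed near if it fell inside a 95% interval of the reported median over peaks or genes. That interval treats peaks or genes as independent, which they are not, so it served only as a yardstick. At an unadjusted p of 0.05, 24 flanking peaks of the first and 1 of the second table were called, in place of 0. With fold sizes of 0.5 and 1.5 (log2), the first table had 735 and 79 lower peaks in place of 366 and 25 and 0 higher peaks in place of 3, and the second table had 91 lower at 1.5 in place of 276. Centred on the table's median, the first table had 23 lower and 72 higher, and the second 1 lower and 5 higher. At or above the median level, 161 were lower and 0 higher in the first table, and 110 lower in the second, where fewer peaks were counted. Shares of all peaks at the fold sizes of 0.5 and 1.5 and at this level limit are not given here. Those counts therefore describe the flanks alone and are not read as differences from all peaks. The median of -0.77 became 0.10 centred, -0.92 at or above the median level, 0.06 with the level trend removed and 0.08 with the regional median subtracted, and the second table's -1.285 became -0.055, -0.0725 with the level trend removed and -0.05 with the regional median subtracted; these 3 corrections subtract a median by construction, and with each of them the first table's median changed sign. The same-gene difference of 0.15 became 0.00 with both peaks at or above the median level, 0.035 with the level trend removed, 0.05 within a level of 0.5 and 0.01 within 5 kb; the cause was not tested. The regional, level-matched, 5 kb, repeated-sequence, robust and joined-peak alternatives were chosen after seeing the data.

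A replicate block on the fold changes of both tables (limma, Benjamini-Hochberg adjustment) called 317 of 342 flanking peaks as deposited, all lower, against a background of 96.6%. Centred, it called 0 (background 0.0% lower and 0.009% higher). At an unadjusted p under 0.05 the centred fit had 47 flanking peaks, beside 1174 of all 11117 peaks that pair one to one. With robust variance moderation it called 317 as deposited and 11 centred, and centred on the joined peaks' medians 2. It takes the tables as independent pairs, which their labels do not state, and as deposited it gave every peak the same standard error, so these calls rest on the shift shared by all peaks. Leaving out either table leaves 1 value per peak and no test. Depth limits single peaks: the median counting half-width of a second-table fold change was 0.346 (log2).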

Other observations

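The other flanks with an unadjusted p below 0.05 by the authors' test in the first deposited table, named here after their values were seen, were mostly weak peaks away from the genes above. They included FOXD2-AS1 (log2 fold change -2.43, level 6.43) and DLEU1-AS1 (-2.37, level 6.08), both antisense RNA genes, SLC25A13 (-1.99, level 6.27), a mitochondrial aspartate-glutamate carrier gene, FOXP1 (-1.98, level 6.35), a forkhead transcription factor gene, and MACC1 (-1.87, level 5.80). None of these overlapped a second-table peak, and none passed the adjusted p.

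Of the 43 flanks wider than 1000 bp, a few are given here, named after their values were seen. In the first table BCL9L, a coactivator of beta-catenin, had -1.57, and in the second -1.54 (261 normalised reads in the knockout and 765 in the control library). PER1, a circadian clock gene, had -1.09 and -1.57 (99.7 knockout and 298 control reads). KDM6B, a histone H3K27 demethylase gene, had -1.08, SKI, a repressor of TGF-beta signalling, -1.24 and SH2B3, an adaptor that restrains cytokine signalling, -0.76, each in the first table only. TNFRSF1A, the TNF receptor gene, had -0.55, above the table's median.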
